A study of Mus musculus with 3 samples.

Results

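The Sall and Mesp families are 6 genes of the 54532 in the deposited table, 4 Sall genes (Sall1, Sall2, Sall3 and Sall4) and 2 Mesp genes (Mesp1 and Mesp2), found by gene symbol. Sall4 and Mesp1 were the factors that should tell the cocktails apart, and they were chosen by a rule written with their counts in these libraries already known, so their values are given as a description. The other 4 genes were taken as family controls. RNA-seq covered 3 mouse libraries, 1 per condition, so nothing below has been checked in a replicate and no p-value was computed. Where 3 values follow each other, MICFs come first, GMTMS-iCMs second and the library labelled GMTMM last. Intervals and floors below cover counting error only.

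All cells came from Myh6-mCherry mice, in which the promoter of the cardiac gene Myh6 drives the red reporter. The mice had myocardial infarction surgery at 8 weeks of age, and cardiac fibroblasts (MICFs) were isolated 5 days later. The MICF library was grown from cells without virus for the same culture time as the other libraries, 4 weeks. GMTMS-iCMs are induced cardiomyocytes made from MICFs with lentiviruses for Gata4, Mef2c, Tbx5, Myocd and Sall4. The remaining library is labelled GMTMM, for Gata4, Mef2c, Tbx5, Myocd and Mesp1. Both transduced cultures received doxycycline at 1 μg/ml, which switches the viral factors on. Whether MICFs received it is not given in the sources used here. The iCMs were sorted for mCherry, which keeps cells with an active Myh6 promoter, and 5 sorted samples were combined per cocktail before RNA extraction, so each iCM library is a pool.

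The Spalt-like (Sall) proteins are zinc-finger transcription factors that repress or activate genes together with chromatin complexes such as NuRD. Sall4 maintains embryonic stem cells and germ cells and acts with Tbx5 in the patterning of limb and heart. Sall1 is required for the kidney and is a marker of microglia in the brain. Mesp1 and Mesp2 are basic helix-loop-helix factors of the early mesoderm. Mesp1 marks the first cardiovascular progenitors of the embryo, and Mesp2 sets the borders of somites.

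The 250 bases before the RefSeq start sites (GRCm38.p6) are shown for Mesp1 and Mesp2, the genes without a count, and for Sall1 and Sall2, the members that had counts in MICFs. They bear on whether the windows of these genes hold letters known as binding sites of the delivered factors. Each is written 5′ to 3′ on the strand of the gene.
Mesp1 (chr7:79793591-79793840, minus strand): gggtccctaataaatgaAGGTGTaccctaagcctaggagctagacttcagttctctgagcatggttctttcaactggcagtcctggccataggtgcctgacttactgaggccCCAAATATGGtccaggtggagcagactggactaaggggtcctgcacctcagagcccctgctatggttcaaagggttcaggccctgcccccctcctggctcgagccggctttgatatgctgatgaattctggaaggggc
Mesp2 (chr7:79810477-79810726, plus strand): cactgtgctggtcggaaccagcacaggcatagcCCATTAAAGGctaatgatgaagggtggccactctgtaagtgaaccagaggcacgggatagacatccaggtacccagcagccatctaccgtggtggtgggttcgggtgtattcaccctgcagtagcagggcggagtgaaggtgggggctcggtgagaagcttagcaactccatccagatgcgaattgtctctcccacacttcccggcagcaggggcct
Sall1 (chr8:89044163-89044412, minus strand): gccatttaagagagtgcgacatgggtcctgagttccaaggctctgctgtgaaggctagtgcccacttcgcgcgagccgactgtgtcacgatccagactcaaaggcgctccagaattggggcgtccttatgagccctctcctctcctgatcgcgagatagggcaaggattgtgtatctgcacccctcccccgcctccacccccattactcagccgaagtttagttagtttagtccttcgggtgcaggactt
Sall2, first start site (chr14:52328671-52328920, minus strand): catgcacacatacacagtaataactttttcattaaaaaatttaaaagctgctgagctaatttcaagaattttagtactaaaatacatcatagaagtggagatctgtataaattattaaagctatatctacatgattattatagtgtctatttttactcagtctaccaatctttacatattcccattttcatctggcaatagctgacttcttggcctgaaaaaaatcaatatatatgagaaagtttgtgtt
Sall2, second start site (chr14:52316324-52316573, minus strand): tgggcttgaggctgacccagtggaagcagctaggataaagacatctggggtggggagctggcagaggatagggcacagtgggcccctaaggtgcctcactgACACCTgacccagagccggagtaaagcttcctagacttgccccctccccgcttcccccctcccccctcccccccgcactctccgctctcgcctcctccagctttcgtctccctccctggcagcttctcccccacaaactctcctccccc
The capitals mark matches on either strand to 4 motifs, which are a GATA site (AGATAA), a T-box site (AGGTGT), the MEF2 site and the CArG box, the element read by serum response factor with its partner Myocd. The matches shown do not overlap each other. Mesp1 held a CArG box 138 bases and a T-box site 233 bases before the start. This start site lies 198 bases inside the start of the gene in the deposited coordinates. The CArG box thus lies within the gene's span and the T-box site before it. Mesp2 held a CArG box 217 bases before it. A CArG box was found in 1.47% of the 32851 promoter windows of the table, a T-box site in 11.8%, a GATA site in 9.99% and a MEF2 site in 2.92%. None of the 4 motifs was found in the window of the first Sall1 or Sall2 start site. The table holds 3 entries for Sall1, all without a match, and the second Sall2 window, 12439 bases inside the start of the gene, held a T-box site 149 bases before its start. The first Sall2 window was AT-rich, with 28.0% GC, and the second had 64.4%, against a median of 52.4% over all windows. A match is a description of the letters and not a measured site. RefSeq entries of the table matched 4 of the 6 members, and Sall3 and Sall4 had none.

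The library totals were between 10624118 and 11904484 counts, and a count of 0 allows up to 3 counts, or 0.252 to 0.282 CPM, counts scaled to the library total. Markers of the cardiomyocyte were nearly absent in MICFs and present in both iCM libraries, with a summed FPKM (the unit scaled to gene length and library size) of 1.28, 1308 and 486. Fibroblast markers summed to 1192, 168 and 2181 FPKM, and endothelial markers to 381, 11.0 and 292 FPKM. Macrophage markers summed to 7233, 14953 and 7011 FPKM, most of it from Lyz2, at 6135, 11353 and 5495 FPKM. Without Lyz2, which was left out after its values were seen, they summed to 1098, 3601 and 1515 FPKM, so macrophage markers were counted in each library, also in the MICFs labelled as cardiac fibroblasts, and exceeded the fibroblast sum only in GMTMS-iCMs, whereas with it they exceeded it in all 3. Of the genes of the Y chromosome, Ddx3y had 0, 880 and 1068 counts, Eif2s3y 0, 402 and 517, Uty 0, 174 and 184, and Kdm5d 0, 174 and 157. The labels do not give the sex of the animals, and the MICF library may come from animals of another sex or pool than the iCM libraries, which in every comparison with MICFs cannot be told apart from the cocktails. In bulk RNA of this kind, fewer cells of a type and less RNA per cell cannot be told apart.

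Sall4, the Spalt factor of the GMTMS cocktail, was absent from the counts of MICFs and abundant in both iCM libraries, the library labelled GMTMM included. Sall4 (ENSMUSG00000027547, chr2:168748332-168767943 on GRCm38, minus strand) had 0 counts in MICFs, then 1190 in GMTMS-iCMs (exact Poisson 95% interval 1123 to 1260) and 1060 in the library labelled GMTMM (997 to 1126). These are 112 CPM and 89.0 CPM, or 23.1 and 16.4 FPKM. Both iCM libraries were thus high and MICFs were at 0.

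Against a floor of 3 counts in MICFs, the FPKM of Sall4 was at least 614.5-fold higher in GMTMS-iCMs and at least 435.3-fold higher in the library labelled GMTMM. On the main scale, log2 of quantile-normalized FPKM + 1, the difference from MICFs was 4.49 for GMTMS-iCMs, while the library labelled GMTMM had 4.05. Sall4 differed little between the iCM libraries, where GMTMS-iCMs held 1.41 times the FPKM (95% Clopper-Pearson interval 1.30 to 1.54) and the log2 difference was 0.44. By FPKM, Sall4 ranked 2278 of the 20309 genes with a count in GMTMS-iCMs and 3058 of 21021 in the library labelled GMTMM. A gene on the opposite strand, Gm14261, covers 9.50% of the exon bases of Sall4 and had 0 counts in each of the 3 libraries. Whether counting used the strand is not given in the sources used here. Counts per gene do not separate the transcript of a virus from that of the mouse gene.

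Mesp1, the factor that the label GMTMM names, had 0 counts in all 3 libraries, the one that carries its label included. The gene (ENSMUSG00000030544, chr7:79792241-79793788, minus strand) is a short gene of 1275 bases, and 3 counts would have been 0.164, 0.253 and 0.201 FPKM. No 50-base word of its transcript occurs in another gene of the GENCODE M21 annotation. The counts therefore go against the label, since the factor of the other cocktail was counted and the named one was not, and the name "library labelled GMTMM" is used throughout for that reason. The source of the mismatch was not tested.

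Mesp2, the paralog 16.9 kb away, also had 0 counts in each library (ENSMUSG00000030543, chr7:79810727-79813439, plus strand). The family was thus not detected at this depth in any of the 3 libraries. A count of 0 in every library was common, with 54.5% of all genes and 25.3% of protein-coding genes.

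**Figure D1:**
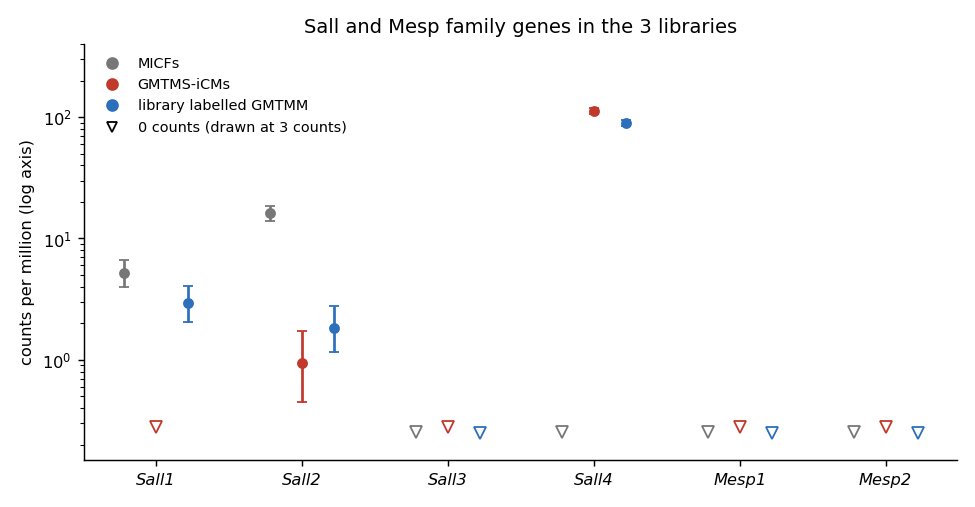
CPM (log axis) of the 6 Sall and Mesp genes in MICFs (grey), GMTMS-iCMs (red) and the library labelled GMTMM (blue), with points and bars for the value and its exact Poisson 95% interval and open triangles for 0 counts, drawn at 3 counts. Sall4 sits at 112 and 89.0 CPM in the iCM libraries and at 0 in MICFs, Sall1 and Sall2 are highest in MICFs, and Sall3, Mesp1 and Mesp2 are at 0 in each library.

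Sall2, a Spalt member known from neurons and growth control, ran opposite to Sall4. Sall2 (ENSMUSG00000049532, chr14:52311172-52328762, minus strand) had 191 counts in MICFs (165 to 220), 10 in GMTMS-iCMs (4.80 to 18.4) and 22 in the library labelled GMTMM (13.8 to 33.3). In FPKM this was 2.44, 0.198 and 0.347. The MICF library was the high one, and the intervals of the iCM libraries overlapped each other and lay far below it. Sall2 was 12.3-fold lower in GMTMS-iCMs (6.56 to 26.1) and 7.05-fold lower in the library labelled GMTMM (4.52 to 11.5), with log2 differences of -1.46 and -1.32. Between the iCM libraries the ratio of GMTMS-iCMs to the library labelled GMTMM was 0.572 with an interval of 0.242 to 1.26, which includes equal levels. Fibroblast markers were low in GMTMS-iCMs and not in the library labelled GMTMM, while Sall2 was low in both; endothelial markers summed to 381, 11.0 and 292 FPKM, and their part in the result was not tested.

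Sall1, the kidney and microglia member, was counted in MICFs and in the library labelled GMTMM and had no count in GMTMS-iCMs. Sall1 (ENSMUSG00000031665, chr8:89027235-89044162, minus strand) had 62 counts in MICFs (47.5 to 79.5), none in GMTMS-iCMs, but again 35 in the library labelled GMTMM (24.4 to 48.7), or 0.818, 0 and 0.569 FPKM. GMTMS-iCMs stood apart as the low library. Against the floor, Sall1 was at least 13.3-fold lower in GMTMS-iCMs than in MICFs and at least 9.28-fold lower than in the library labelled GMTMM. These low levels gave log2 differences of only -0.84 and -0.62, because 1 was added to the FPKM. By CPM of the library total they were -2.64 and -1.98, past 1. The library labelled GMTMM had 0.695 times the FPKM of MICFs (0.446 to 1.07), an interval that includes 1, whereas by CPM the ratio was 0.562 (0.361 to 0.865). The fibroblast and endothelial marker sums were also lowest in GMTMS-iCMs, and their part in the result was not tested.

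Of the microglia markers, which Sall1 accompanies in the brain, 2 of 6 were lower than in MICFs by over 1 in GMTMS-iCMs and 3 of 6 in the library labelled GMTMM, and they summed to 107, 71.4 and 109 FPKM. Among all genes 2.72% and 1.3% were lower than in MICFs in these libraries. Tmem119 had 677, 38 and 811 counts and Olfml3 2739, 276 and 4348, so these 2 markers were low where Sall1 was at 0. Fibroblast markers, with a sum of 1192, 168 and 2181 FPKM, were also lowest there, and their part in these values was not tested. P2ry12 had 394, 326 and 115 counts, Gpr34 1143, 893 and 341 and Cx3cr1 454, 198 and 48, and these were lowest in the library labelled GMTMM. Siglech, a further marker of microglia, stayed at 9 counts or fewer in each library. The list therefore did not move as 1 group with Sall1.

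Sall3 (ENSMUSG00000024565, chr18:80966376-80986578) had 0 counts in each library. With it, 3 of the 6 members were at 0 everywhere, 4 were at 0 in MICFs, 3 had over 10 counts in a library, and 2 reached an FPKM of 1. Levels compared per length put Sall2 above Sall1 in MICFs, with 2.44 against 0.818 FPKM. In GMTMS-iCMs the order was Sall4, at 23.1 FPKM, then Sall2 at 0.198, with the others at 0. In the library labelled GMTMM it was Sall4 at 16.4, Sall1 at 0.569 and Sall2 at 0.347 FPKM, and the counts behind the last 2 have overlapping intervals.

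Against the background of all genes, 3.13% lay above MICFs by over 1 in GMTMS-iCMs and 2.72% lay below, and of the 6 members 1 was higher, Sall4, and 1 was lower, Sall2. In the library labelled GMTMM 2.12% of all genes were higher than in MICFs and 1.3% were lower, and the members past 1 were again Sall4 above and Sall2 below. Both comparisons share the MICF library. The shares are of all genes, of which 54.5% had no count in any library and could not pass 1. Between GMTMS-iCMs and the library labelled GMTMM 2.33% of all genes were higher and 2.84% lower, and no member passed 1 in either direction. Because Sall4 was part of the choice, nothing is read from its call. Of the genes past 1, 53.5% were on the higher side in GMTMS-iCMs against MICFs, 62.0% in the library labelled GMTMM against MICFs and 45.1% between the iCM libraries. By CPM of the library total these shares were 25.9%, 39.8% and 27.3%, and with a pseudocount of 0.1 the share for the library labelled GMTMM against MICFs was 51.3%. Sall4 stayed higher and Sall2 lower against MICFs on these scales.

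Sall4 was set beside the other delivered factors, which belong to both cocktails. Tbx5, the T-box factor of heart and forelimb, had 1, 804 and 670 counts. Myocd, the coactivator of serum response factor, had 8, 574 and 342 counts. Like Sall4, both were at or near 0 in MICFs and high in the iCM libraries. Gata4, a zinc-finger factor of the heart, had 889, 1207 and 2040 counts, and Mef2c, a MADS-box factor of muscle, had 1014, 1295 and 1071, so these 2 were already counted in MICFs.

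The FPKM of Sall4 in the library labelled GMTMM was 0.708 times that in GMTMS-iCMs (0.651 to 0.770). The ratio was 0.663 for Tbx5 (0.597 to 0.735) and 0.658 for Mef2c (0.606 to 0.714), whose intervals overlapped that of Sall4. It was lower for Myocd, at 0.474 (0.413 to 0.543), and above 1 for Gata4, at 1.34 (1.25 to 1.44). Nothing is read from the place of Sall4 among these ratios, since its counts were known when it was chosen. Of the counts of these 5 genes, Sall4 took 0% in MICFs but 23.5% in GMTMS-iCMs (22.3% to 24.7%) and 20.5% in the library labelled GMTMM (19.4% to 21.6%).

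**Figure D2:**
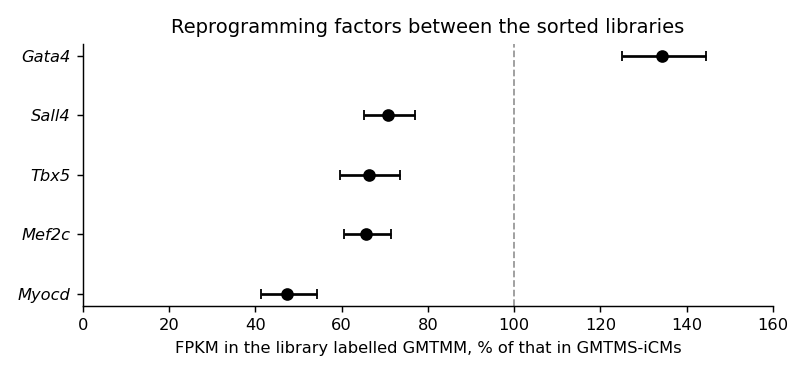
FPKM in the library labelled GMTMM as a percent of that in GMTMS-iCMs for the 5 factors counted, with points for the ratio and bars for its 95% Clopper-Pearson interval; the dashed line marks 100%. Sall4 lies at 70.8%, Tbx5 at 66.3% and Gata4 at 134%, and Mesp1 is not drawn because it had 0 counts.

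The Sall genes belong to the C2H2 zinc-finger class, which the table's transcription factor column gives to 576 genes, 508 of them with a count. Sall4 had the highest difference of the class in both comparisons with MICFs. Nothing is read from this rank, since Sall4 was a delivered factor and its counts were known when it was chosen. In GMTMS-iCMs the next in order was Plagl2 at 3.02, which had 593, 4023 and 1589 counts, and in the library labelled GMTMM it was Hivep2 at 2.36, with 480, 3452 and 2701 counts. By level, Sall4 ranked 14 of the 469 class genes counted in GMTMS-iCMs and 18 of 475 in the library labelled GMTMM. Sall2 lay near the other end, 11 from the lowest difference of the class in GMTMS-iCMs against MICFs and 8 from it in the library labelled GMTMM. Against MICFs, 15 genes of the class were higher and 28 lower with GMTMS, and 13 were higher and 33 lower in the library labelled GMTMM. The median differences of the class were -0.13 and -0.21. Over all 54532 genes the medians were 0.00, as most had no count, and over the 15451 genes with more than 10 counts in a library they were -0.07 and -0.08. The calls of the class stand beside 3.13% higher and 2.72% lower over all genes in GMTMS-iCMs and 2.12% and 1.3% in the library labelled GMTMM. The terms are unlike, since 54.5% of all genes had no count and could not pass 1, whereas 508 of the 576 class genes had one. Mesp1 and Mesp2 belong to the basic helix-loop-helix class of 100 genes, of which 29 had no count in any library.

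**Figure D3:**
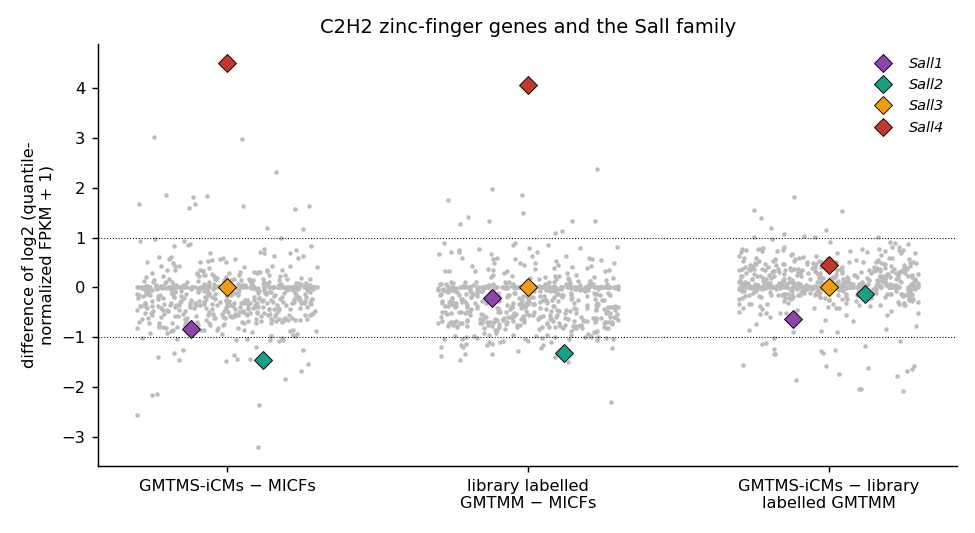
Difference of log2 (quantile-normalized FPKM + 1) for the 576 C2H2 zinc-finger genes (grey points, spread sideways for legibility) in the 3 comparisons, with diamonds for the 4 Sall genes and dotted lines at differences of 1 and -1. Sall4, a delivered factor chosen with its counts known, is the top point of both comparisons with MICFs, at 4.49 and 4.05. Sall2 lies at -1.46 and -1.32, and all 4 Sall genes lie within 1 of 0 between the iCM libraries.

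Genes that work with the families in other tissues were taken from fixed lists. Of 12 pluripotency partners of Sall4, 8 had 0 counts in each library, namely Pou5f1, Nanog, Sox2, Lin28a, Lin28b, Zfp42, Dppa4 and Prdm14, the core factors of embryonic stem cells among them. None passed a difference of 1 in GMTMS-iCMs against MICFs. In the library labelled GMTMM 1 was higher, Klf4, which also acts in many adult cells, with 1437, 1134 and 3494 counts, a difference of 1.13. There 2.12% of all genes were higher. Germ cell markers, where Sall4 is also known, stayed at 7 counts or fewer in each library apart from Kit, the receptor of stem cell factor, which had 2030, 45 and 1556 counts and differed from MICFs by -3.57 in GMTMS-iCMs. High Sall4 counts thus stood beside counts of 16 or fewer for the pluripotency and germ cell genes other than Klf4 and Kit.

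The NuRD complex, which Sall4 recruits to chromatin in stem cells, was counted with all 15 subunits in each library. Of them 1 fell below MICFs by over 1 in GMTMS-iCMs and 0 passed in the library labelled GMTMM, with list medians of -0.23 and -0.14. The median of -0.23 is the value of Mta2, whose FPKM in GMTMS-iCMs was 1.14 times that in MICFs (1.06 to 1.22). Its negative sign thus comes from the quantile normalization. The FPKM of the list summed to 274, 301 and 292. The subunit was Cdk2ap1, with 381, 94 and 254 counts, which was 2.62-fold lower in GMTMS-iCMs (2.08 to 3.31). Chd4, the remodelling ATPase, had 4724, 5404 and 4174 counts, and Hdac1, a histone deacetylase, had 852, 438 and 820. The differences of the 15 subunits lay between -1.31 and 0.28 in GMTMS-iCMs and between -0.58 and 0.11 in the library labelled GMTMM. Among all genes 2.72% and 1.3% were lower than in MICFs in these libraries.

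Limb and heart genes around Tbx5 and Sall4 held members in both directions, with 1 of 10 higher and 2 lower than MICFs in GMTMS-iCMs and 2 higher and 1 lower in the library labelled GMTMM. For GMTMS-iCMs the shares past 1 over all 54532 genes were 3.13% above MICFs and 2.72% below. For the library labelled GMTMM these shares were 2.12% and 1.3%. With TMM or DESeq2 size factors 5 of the 10 limb and heart genes were lower in GMTMS-iCMs and 2 higher. The background was also larger on these scales. With TMM, 4276 of all genes fell below MICFs in GMTMS-iCMs and 3586 rose above. With DESeq2 size factors the numbers were 4823 and 5138. Nppa, the atrial natriuretic peptide and a target of Tbx5, had 0, 30 and 52 counts. Its FPKM was at least 15.5-fold and at least 21.4-fold above MICFs. Gja5, a gap junction gene of conduction cells and arteries and also a target of Tbx5, had 567, 1 and 31 counts, so it was high in MICFs and low in both iCM libraries, with differences of -2.96 and -2.47. The transcription factor Hand2 was lower in GMTMS-iCMs, with 151, 25 and 114 counts, and Tbx3 was higher in the library labelled GMTMM, with 45, 25 and 293 counts, a difference of 1.68. Shh and Hoxd13, patterning genes of the limb, had 0 counts in each library. Endothelial markers summed to 381, 11.0 and 292 FPKM, so they were low with Gja5 in GMTMS-iCMs and far less so in the library labelled GMTMM. The part of other cell types in these values was not tested.

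Early mesoderm genes that act before or beside Mesp1 had few counts, with 0 of 12 past 1 in each of the 3 comparisons on the main scale. With TMM 2 genes were higher than MICFs for GMTMS-iCMs but 3 for the library labelled GMTMM, and with DESeq2 size factors 3 were for each. Of all 54532 genes, 3586 and 3568 were higher in these libraries with TMM, and 5138 and 3865 with DESeq2 size factors. T, Gsc, Fgf8, Msgn1 and Tdgf1 had 0 counts in each library. Eomes, which switches on Mesp1 in the embryo, had 1, 0 and 25 counts, and Tbx6, a T-box gene of the presomitic mesoderm, had 22, 11 and 36. Both were highest in the library labelled GMTMM, at 36 counts or fewer. Between the iCM libraries 2 genes of the list were lower in GMTMS-iCMs with TMM, while with DESeq2 size factors 2 were lower and 2 higher. Among all genes 4450 were lower there with TMM, and 4515 were lower and 4515 higher with DESeq2 size factors. The counts of the 12 genes summed to 23, 19 and 67.

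Of the 15 cardiac progenitor genes that act after Mesp1, 7 fell below MICFs by over 1 in GMTMS-iCMs and 0 were higher. Among all genes 2.72% were lower there. Without quantile normalization 7 of the list were again lower. The list median was -0.74, against -0.07 over the 15451 genes with more than 10 counts in a library. That median is the value of Cxcr4, whose FPKM in GMTMS-iCMs was 0.985 times that in MICFs (0.941 to 1.03). Its -0.74 thus comes from the quantile normalization. In the library labelled GMTMM 2 genes of the list were higher than in MICFs and 2 lower, with a median of 0.00. Among all genes 2.12% were higher and 1.3% lower in that library. Nkx2-5, Isl1 and Hand1, core progenitor factors, had 0 counts in each library. Snai1, a C2H2 factor of the epithelial-to-mesenchymal transition, had 483, 24 and 203 counts, and Snai2, its paralog, had 197, 6 and 88, with differences of -3.20 and -2.55 in GMTMS-iCMs. Pdgfra, a receptor of fibroblasts and early mesoderm, had 2559, 318 and 3056 counts, and Tbx20, a T-box factor, had 5005, 979 and 4251. These 4 genes were lowest in GMTMS-iCMs. Pdgfra is also on the list of fibroblast markers, all 6 of which were below MICFs by over 1 in GMTMS-iCMs, and their part in the result was not tested.

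In the library labelled GMTMM the 2 higher genes of this list were Foxf1, a forkhead factor of lateral mesoderm, with 39, 13 and 134 counts and a difference of 1.44, and Gata6, a relative of Gata4, with 324, 133 and 617 counts and a difference of 1.05. The 2 lower genes were Snai1, at -1.16, and Kdr, the VEGF receptor, with 1236, 176 and 453 counts, at -1.09. Without quantile normalization 0 genes of the list were lower in that library, and with TMM or DESeq2 size factors 1 was. Kdr is also on the endothelial list, of which 2 of 5 were lower in that library. Between the iCM libraries, where 2.84% of all genes were lower in GMTMS-iCMs and 2.33% higher, 8 of the 15 were lower and none was higher. Twist1, a basic helix-loop-helix factor of mesenchyme, was among them, with 84, 10 and 110 counts, a difference of -1.95.

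Somite segmentation genes around Mesp2 held 2 of 12 higher and 1 lower than MICFs in GMTMS-iCMs, beside 3.13% and 2.72% of all genes. In the library labelled GMTMM 0 passed 1, beside 2.12% higher and 1.3% lower among all genes. The higher genes were Rbpj, the DNA-binding partner of Notch, with 1413, 3949 and 1947 counts and a difference of 1.81, and Notch1, the receptor, with 2093, 4313 and 2495 counts and a difference of 1.37. Both act in many tissues besides the somite. The lower gene was Tcf15, a somite and endothelial factor, with 38, 0 and 29 counts. Ripply2 and Uncx, markers of the segmenting somite, had 0 counts in each library. Lfng, which modifies Notch receptors, had 857, 1492 and 802 counts and was higher in GMTMS-iCMs than in the library labelled GMTMM by 1.14.

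Nephron progenitor genes around Sall1 held 4 of 10 lower and 0 higher than MICFs in GMTMS-iCMs (median -0.31), and 2 higher and 0 lower in the library labelled GMTMM (median -0.12), where 4 were lower by CPM of the library total. By CPM 1865 of all 54532 genes were lower in that library. Six2, a factor of nephron progenitors, had 50, 0 and 17 counts, Osr1 84, 6 and 36, Meox1 101, 5 and 65, and Kif26b, a kinesin gene that Sall1 controls in the kidney, 328, 23 and 150. All 4 were lowest in GMTMS-iCMs. There 2.72% of all genes were lower than in MICFs, as were 6 of 6 fibroblast markers, with a median of -3.11, and 5 of 5 endothelial markers, and their part in the result was not tested. Gdnf, the ligand of kidney outgrowth, had 15, 34 and 331 counts, and Wt1, a factor of the kidney and the epicardium, had 8, 6 and 128, so these 2 were high in the library labelled GMTMM alone. In that library 2.12% of all genes were higher than in MICFs. Cited1 and Hoxa11 had 0 counts in each library.

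**Figure D4:**
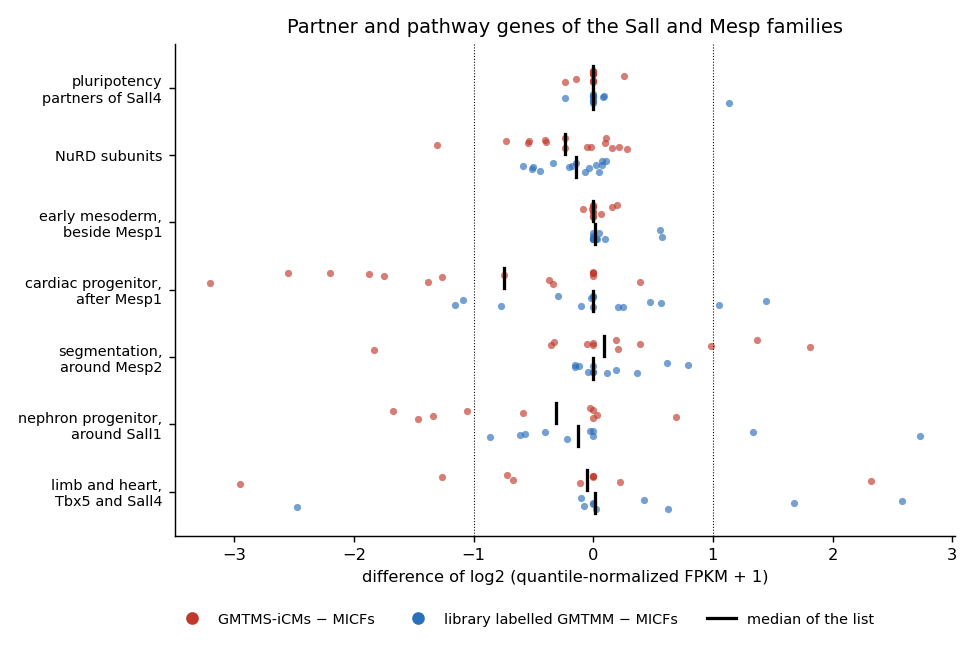
Difference from MICFs of log2 (quantile-normalized FPKM + 1) for each gene of 7 lists, in GMTMS-iCMs (red) and in the library labelled GMTMM (blue), with a black bar at each list's median and dotted lines at 1 and -1. In the cardiac progenitor list 7 of 15 genes lie below -1 in GMTMS-iCMs. Its median of -0.74 is the value of Cxcr4, whose FPKM hardly differed before quantile normalization. The pluripotency and early mesoderm lists lie at 0 apart from single genes.

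The nearest protein-coding genes were read beside each member. Counts do not separate viral from mouse Sall4 transcripts, so the values beside Sall4 cannot show how far its difference reached along the chromosome. Next to Sall4, at 5.92 kb, Atp9a, a flippase gene, had 725, 115 and 781 counts and differed from MICFs by -1.58 in GMTMS-iCMs and by 0.27 in the library labelled GMTMM. Kcng1, a potassium channel gene 466.6 kb away, had 0, 84 and 46 counts. Nfatc2 had 835, 371 and 284 counts, Zfp64 had 184, 99 and 122, Tshz2 had 35, 3 and 37, and Gm11011 had 0. Sall4 and Kcng1 alone among these 7 genes had 0 counts in MICFs and counts in both iCM libraries.

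Around the Mesp genes, Wdr93 had 4, 1 and 3 counts at 6.29 kb on one side, and Anpep, the aminopeptidase CD13, had 3808, 6318 and 3186 at 8.36 kb on the other. The uncounted Mesp pair thus lay beside an abundant gene. Plin1, a lipid droplet gene, had 213, 2 and 119 counts, a difference of -1.94 in GMTMS-iCMs. The other neighbours, Pex11a, Ap3s2 and Arpin, stayed within 1 of MICFs in both iCM libraries.

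Of the 6 neighbours of Sall1, 1 passed 1 against MICFs, Nod2, a sensor of bacterial peptides, with 104, 466 and 312 counts and differences of 2.22 and 1.39, opposite in direction to Sall1. Cyld, Snx20, Tox3, Gm19935 and Chd9 did not pass. None of the 6 neighbours of Sall2 passed 1 in any comparison. They were Mettl3, at 6.04 kb, with 199, 74 and 89 counts, Tox4 and Rab2b on one side and the olfactory receptors Olfr1513, Olfr1512 and Olfr1511, all at 0, on the other. None of the 6 neighbours of Sall3 passed 1 against MICFs, namely Atp9b, Nfatc1, Ctdp1, Galr1, Mbp and Zfp236.

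The genes most like Sall4 over the 3 libraries, by the Euclidean distance of their log2 levels, were Ddx3y at 0.32, Ifnb1 at 0.38, Tbx5 at 0.46 and Pvalb at 0.47, followed by Gm13033, Gm12617, Noct, Bcl2a1a, Cxcl3 and Fabp3 up to 0.95. Tbx5 was delivered by virus as Sall4 was, and Ddx3y is a Y-linked gene named above. With 3 libraries such a likeness only describes how close 3 levels lie. Without quantile normalization 10 of the 10 genes were again found, and on the TMM scale 3 of the 10. For Sall2 the nearest were Sucnr1, Zfp324, Zfp422-ps, Zfp366 and Zfp760, and for Sall1 AU015791, Tmem150c, 4833403J16Rik, Gm38080 and Gm31597, of which 1 of 5 and 0 of 5 were found again with TMM.

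Sall4 was 1 of 39 genes that had no more than 3 counts in MICFs while reaching 100 in GMTMS-iCMs. Of these 39, 4 were transcription factors by the table's column, namely Kdm5d, Runx3, Tbx5 and Sall4. Kdm5d, with 0, 174 and 157 counts, is Y-linked like Ddx3y, so for it the sex of the animals and the cocktails cannot be told apart. The set is defined by these counts, so membership is a description only.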

How the data were processed

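RNA was sequenced as paired reads from 3 libraries, 1 per condition. The authors deposited, for each of 54532 genes, whole-number counts and FPKM; the submitters' processing notes name HISAT2 2.0.5 and mm9, but 98.3% of 54409 shared gene identifiers have the GENCODE M21 start and end on GRCm38, so coordinates are given as GRCm38. The counting tool and its use of strand are not given in the sources used here. The FPKM used a library size scaled by DESeq2 size factors, not the library total. The column named cMF was taken as MICFs because the other columns name the cocktails.

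FPKM were quantile-normalized over the 3 libraries, ties averaged, and transformed as log2 (FPKM + 1), after the paper's methods. A difference over 1 was called. Ratios are of FPKM with Clopper-Pearson 95% intervals, and 3 counts were the floor. With 1 library per condition there was no test. The members and lists were chosen with earlier results of these data known. Named genes were the members, the delivered factors, from each list the genes at 0 in each library and up to 4 per comparison with over 10 counts and a difference over 1, the 3 nearest genes on each side, and the 10 or 5 genes of most similar pattern. Further genes of the C2H2 class and of the set low in MICFs, Lyz2, the Y-linked genes in the opening and list genes named without passing 1 were chosen after their values were seen. Alternatives were other scalings (pseudocount of 0.1, no quantile normalization, TMM of edgeR 4.0.16, DESeq2 1.42.0 size factors, CPM), filters and a difference over 2. The steps were tested on simulated data. Motifs were searched on both strands of 250 bases before RefSeq starts; the window, and a stricter MEF2 motif that left no match in Mesp1, were set after first matches were seen. Python 3.11.15, pandas 2.3.3, SciPy 1.17.1, matplotlib 3.10.9 and R 4.3.3 were used.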

Additional observations from a re-analysis of the deposited data

How the results depend on the processing

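Sall4 stayed higher than MICFs by over 1 in both iCM libraries, and Sall2 lower, under each scaling and filter run; Sall3, Mesp1 and Mesp2 had no counts under any, and under the filter of an FPKM of at least 1 they and Sall1 got no value. The size moved with the scaling. For Sall4 in GMTMS-iCMs against MICFs the difference was 7.76 with a pseudocount of 0.1, 4.59 without quantile normalization, 9.51 with TMM, 10.5 with DESeq2 size factors and 6.82 by CPM, and with the library labelled GMTMM in place of GMTMS-iCMs it came to 7.29, 9.07, 10.0 and 6.49 with the pseudocount, TMM, DESeq2 and CPM. Between the iCM libraries it was 0.33 by CPM. In the same order of those 4 scalings, Sall2 was at -2.97, -3.51, -3.52 and -3.14 in GMTMS-iCMs against MICFs, at -2.49, -2.74, -2.76 and -2.59 in the library labelled GMTMM against MICFs, and at -0.48, -0.77, -0.76 and -0.55 between the iCM libraries. Sall1 was at -3.14, -4.75, -5.65 and -2.64 in GMTMS-iCMs against MICFs, past the threshold it missed on the reported scale, at -0.46, -0.53, -0.51 and -0.66 in the library labelled GMTMM against MICFs, and at -2.68, -4.23, -5.14 and -1.98 between the iCM libraries, again past it. With these 4 scalings 2 members were therefore lower in GMTMS-iCMs than in MICFs and 1 lower than in the library labelled GMTMM; with a difference over 2 as the threshold, 0 members were lower in either comparison with MICFs. The ratio of Sall4 in the library labelled GMTMM to that in GMTMS-iCMs was 0.708 by FPKM and 0.795 by CPM. With counts taken relative to the summed counts of the 4 common factors it was 0.838. Of the member differences 34 moved and 98 did not. The 98 include all those of Sall3, Mesp1 and Mesp2, which had no counts and could not move.

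Counts over all genes ranged from 497 to 5138 higher (reported 1708) and 479 to 4823 lower (1485) in GMTMS-iCMs against MICFs, from 329 to 3865 (1156) and 63 to 3324 (708) in the library labelled GMTMM, and from 74 to 4515 (1272) and 513 to 4515 (1550) between the iCM libraries, each lowest with a difference over 2 and highest with DESeq2 size factors. Of the counts over lists 87 changed by over 1.5 times and 291 did not. By CPM the median of genes with a count shifted by -0.16 and -0.12 against MICFs. No paired analysis was possible because every condition has a single library. A gene at 0 was set at the floor of 3 counts, and no spread between cultures can be given.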

Other observations

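Other zinc-finger genes of the class of Sall4 differed between the libraries; they were picked after their values were seen. Hivep1, Hivep2 and Hivep3, factors that bind sites like those of NF-kappaB, were all higher in GMTMS-iCMs than in MICFs, by 1.86, 2.98 and 2.31. Hivep1 had 811, 2319 and 1953 counts (MICFs first, then GMTMS-iCMs, then the library labelled GMTMM), and Hivep3 had 268, 1471 and 814. Ikzf1, a factor of blood cells, had 774, 1894 and 733 counts and was higher in GMTMS-iCMs than in the library labelled GMTMM by 1.54. Macrophage markers were highest in GMTMS-iCMs as well, and their part in these values was not tested. Egr2, an immediate-early gene, was low in both iCM libraries, with 3098, 623 and 691 counts, while Egr1, its relative, was low in GMTMS-iCMs only, with 12748, 2994 and 11397 counts. Peg3, an imprinted gene, had 266, 46 and 771 counts, and Mecom, a factor of blood stem cells and endothelium, had 857, 64 and 716, so both were lowest in GMTMS-iCMs.

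In the basic helix-loop-helix class of Mesp1 and Mesp2, 7 of 100 genes lay above and 15 below MICFs in GMTMS-iCMs, beside 3.13% and 2.72% of all genes, and 8 were higher and 2 lower in the library labelled GMTMM, beside 2.12% and 1.3%. These shares are on unlike terms, since 54.5% of all genes but 29 of the 100 had no count and could not pass 1. The highest were Id2, an inhibitor of the class, at 2.65 in GMTMS-iCMs, and Bhlhe40, a circadian and stress repressor, at 2.46 in the library labelled GMTMM. The lowest were Tcf21, at -3.37 in GMTMS-iCMs, which is on the list of fibroblast markers, all 6 of them lower there, and Lyl1, a blood and endothelial factor, at -2.97 in the library labelled GMTMM.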
